A study of Mus musculus with 12 samples.

Results

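The 6 genes described here encode the main zinc-buffering proteins of the heart and part of the machinery that regulates and moves zinc: the metallothioneins Mt1 and Mt2, the metal-responsive transcription factor Mtf1, the importers Slc39a14 (ZIP14) and Slc39a8 (ZIP8), and the exporter Slc30a1 (ZnT1). They are 6 of the 55487 genes in the expression table, each with a single row, and they were chosen by symbol with results of the same table already known. Among those known results was the Mt1 level in I/R+B12 hearts relative to Sham+B12 hearts. That comparison, and any that contains it or reuses its I/R+B12 libraries, is therefore given below as a description and supports nothing further. Of the 6 genes, 5 reached an FPKM of 1 in at least 3 of the 12 libraries and entered the test across 13001 genes, and Slc39a8 did not. FPKM is a count of sequenced fragments divided by transcript length and by library size.

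Metallothioneins are small proteins, rich in cysteine, that bind zinc and copper through their thiol groups and can release zinc when those thiols are oxidised. MTF-1 senses free zinc and binds metal response elements in the promoters of Mt1, Mt2 and Slc30a1, while glucocorticoids and the IL-6 family, acting through STAT3, raise metallothionein transcription by other routes. ZIP proteins carry zinc into the cytosol and ZnT proteins carry it out of the cytosol.

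RNA came from hearts of wild-type mice in 4 groups of 3 libraries. Sham mice had the thoracotomy without coronary occlusion and drank normal water, and Sham+B12 mice had the same operation after 7 days of vitamin B12 at 50 mg/L in the drinking water, at an intake of 4 mL per day. I/R mice had 45 min of occlusion of the left anterior descending coronary artery and 24 h of reperfusion on normal water, and I/R+B12 mice had that injury after the B12 water. All groups shared the anaesthesia and open-chest operation, and the age of the mice, the heart region sampled and the time from sham operation to harvest are not given in the sources used here. The labels also do not state that each library is a different mouse, so the p-values measure the spread between libraries.

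The gene identities and positions are those of GENCODE M21 on mm10. Mt1 (ENSMUSG00000031765) lies on the plus strand at chr8:94179082-94180327, and Mt2 (ENSMUSG00000031762) lies 5513 bp before it on the same strand, at chr8:94172664-94173568. The coding sequences below, of transcripts Mt1-201 and Mt2-201, are printed because the 2 metallothioneins carry the results and their cysteine codons, in capitals, are what makes them metal binders.
Mt1-201: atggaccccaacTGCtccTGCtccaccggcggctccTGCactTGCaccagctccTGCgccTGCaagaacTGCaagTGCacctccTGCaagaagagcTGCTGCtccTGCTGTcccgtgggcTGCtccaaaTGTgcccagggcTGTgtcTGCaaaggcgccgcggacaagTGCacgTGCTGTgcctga
Mt2-201: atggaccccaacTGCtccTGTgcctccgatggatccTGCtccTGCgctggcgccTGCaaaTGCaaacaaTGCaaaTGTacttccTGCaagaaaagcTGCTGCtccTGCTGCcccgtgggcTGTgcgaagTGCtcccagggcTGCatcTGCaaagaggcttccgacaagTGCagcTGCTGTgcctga
Each has 61 codons before the stop, of which 20, or 32.8%, encode cysteine, and all 20 cysteine positions are shared. The coding sequences were equal at 148 of 186 bases (79.6%). The longest exact run shared by the full transcripts was 20 bases against a read length of 150 bases, so reads of the 2 genes are distinguishable, although how the authors' pipeline assigned multiply mapped reads is not given in the sources used here.

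The promoters of both genes are printed because the 2 genes moved together across libraries, as shown further on. They come from RefSeq on GRCm38.p6, the patched release of mm10, and all except Slc39a14 among the 6 genes matched an entry. Capitals mark the core of the metal response element, searched on both strands as TGCACNC or TGCGCNC, and the printed stretches end 10 bases before the RefSeq start.
Mt1, chr8:94178839-94179078, plus strand: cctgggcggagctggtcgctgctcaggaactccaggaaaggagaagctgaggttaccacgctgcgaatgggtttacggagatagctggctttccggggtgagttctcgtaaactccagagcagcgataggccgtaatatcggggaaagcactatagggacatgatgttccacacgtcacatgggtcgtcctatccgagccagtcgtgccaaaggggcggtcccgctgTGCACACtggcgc
Mt2, chr8:94172368-94172607, plus strand: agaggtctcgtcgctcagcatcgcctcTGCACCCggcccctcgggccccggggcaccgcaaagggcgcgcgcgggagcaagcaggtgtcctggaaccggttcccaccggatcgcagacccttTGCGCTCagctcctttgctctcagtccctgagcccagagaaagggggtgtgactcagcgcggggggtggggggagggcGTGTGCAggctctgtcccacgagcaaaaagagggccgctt
Before the RefSeq start the Mt2 window held 3 cores, beginning 223, 128 and 50 bases upstream, and the Mt1 window held 1, beginning 23 bases upstream. Further Mt1 cores began 2 and 20 bases after that start, and a further Mt2 core 4 bases after it. The counts before the start therefore depend on the start taken, and sequence beyond the window was not searched. Counted over the whole 300-base window, which runs past the start, Mt2 held 4 cores, Mt1 held 3 and Slc30a1 held 2. At least 1 core occurred in 25.7% of the 32851 RefSeq windows of this length, at least 3 in 1.97% and at least 4 in 0.517%. The Mtf1 window held none of these letters, and of the windows at the 2 starts of Slc39a8 1 held a single core. The letters of a STAT site (TTCNNNGAA) were found 0 times before the RefSeq start of Mt1 and of Mt2. Those of the antioxidant response element core (TGACNNNGC) were found 0 times for Mt1 and 1 time for Mt2. Of the whole 300-base windows, 8.3% and 12.4% held at least 1 of each.

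Across libraries, 11490 to 12612 genes reached an FPKM of 1, and steps between low values placed the depth at an estimated 24.0 to 28.5 M fragments per library. All 8 cardiomyocyte markers were present, with a mean log2(FPKM + 1) of 11.14 to 11.81. Over all tested genes, 4 libraries were most similar to a library of another operation group. The library labelled Sham 3 was nearest to I/R+B12 1 (r = 0.969 across genes) and the library labelled I/R 3 was nearest to Sham 2 (r = 0.982). I/R+B12 3 was nearest to Sham 3 (r = 0.955), and Sham 2 to I/R 3. Results that rest on the libraries labelled Sham 3 and I/R 3 are therefore given with and without them.

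Mt1 was the most abundant of the 6 genes. Its FPKM was 714, 275 and 1680 in Sham 1 to 3, and 702, 666 and 471 in Sham+B12. In I/R 1 to 3 it was 1249, 1328 and 305, and in I/R+B12 it was 2015, 4938 and 3674. All 3 I/R+B12 libraries were above the other 9, the next highest was the library labelled Sham 3, and the 2 lowest were Sham 2 and the library labelled I/R 3. Group means were 890 ± 719 in Sham, 613 ± 124 in Sham+B12, 961 ± 569 for I/R and 3542 ± 1466 in I/R+B12 (SD, n = 3 each). The highest library held 18.0 times the FPKM of the lowest. Of the group means, those of Sham, Sham+B12 and I/R differed by less than the SD of Sham or I/R.

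Mt2 followed nearly the same order of libraries with a wider range. Its FPKM was 230, 47.4 and 1043 in Sham 1 to 3, and 173, 233 and 132 in Sham+B12. In I/R 1 to 3 it was 948, 1007 and 79.8, and in I/R+B12 it was 1268, 4130 and 2341. The same 6 libraries led for both genes: the 3 I/R+B12 libraries, the library labelled Sham 3, I/R 2 and I/R 1, in an order that was also the same. Group means were 440 ± 530 in Sham, 179 ± 50.8 in Sham+B12, 678 ± 519 for I/R and 2580 ± 1446 in I/R+B12 (SD, n = 3 each), and the highest library held 87.2 times the FPKM of the lowest.

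Mtf1 (ENSMUSG00000028890, chr4:124802104-124849800, plus strand), the zinc sensor, was present at a few FPKM in every library. It was 2.83, 2.03 and 4.14 in Sham 1 to 3, 2.39, 3.70 and 3.11 in Sham+B12, 4.01, 3.86 and 3.53 in the I/R group, and 4.11, 5.62 and 4.55 in I/R+B12. Only the library labelled Sham 3 among the sham-operated hearts came within the I/R+B12 range. The means were 3.0 ± 1.07, 3.07 ± 0.656, 3.80 ± 0.246 and 4.76 ± 0.777 in that order of groups (SD, n = 3 each).

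Slc39a14 (ENSMUSG00000022094, chr14:70303469-70351425, minus strand) encodes an importer that carries zinc and also iron and manganese. Its FPKM was 14.0, 8.07 and 18.2 in Sham 1 to 3, 13.9, 11.0 and 12.8 in Sham+B12, 26.8, 27.2 and 10.5 in the I/R group, and 25.4, 47.1 and 27.7 in I/R+B12. I/R 1 and I/R 2 lay inside the I/R+B12 range, whereas the library labelled I/R 3 was below every Sham+B12 library. The means were 13.4 ± 5.08, 12.6 ± 1.46, 21.5 ± 9.51 and 33.4 ± 11.9 in the same order (SD, n = 3 each).

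Slc39a8 (ENSMUSG00000053897, chr3:135825279-135888572, plus strand) encodes the closest relative of ZIP14 and stayed below an FPKM of 1 in all 12 libraries. It was 0.19, 0.42 and 0.20 in Sham 1 to 3, 0.34, 0.32 and 0.23 in Sham+B12, 0.32, 0.40 and 0.38 in the I/R group, and 0.48, 0.69 and 0.39 in I/R+B12. These levels correspond to an estimated 12.9 to 73.8 fragments per library, depending on the transcript length assumed. It entered only the fit without a filter on low values, where limma gave it no adjusted p below 0.1919 in any of the 6 comparisons.

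Slc30a1 (ENSMUSG00000037434, chr1:191906767-191913247, plus strand), the exporter at the plasma membrane, had the narrowest range, 1.92-fold between its highest and lowest library. Its FPKM was 4.65, 4.51 and 4.12 in Sham 1 to 3, 4.05, 3.74 and 3.94 in Sham+B12, 7.18, 6.82 and 4.82 in the I/R group, and 5.68, 4.53 and 4.61 in I/R+B12. In contrast to the metallothioneins, its highest libraries were I/R 1 and I/R 2, and the lowest was Sham+B12 2. The means were 4.43 ± 0.275, 3.91 ± 0.157, 6.27 ± 1.27 and 4.94 ± 0.642 in the same order (SD, n = 3 each).

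**Figure D1:**
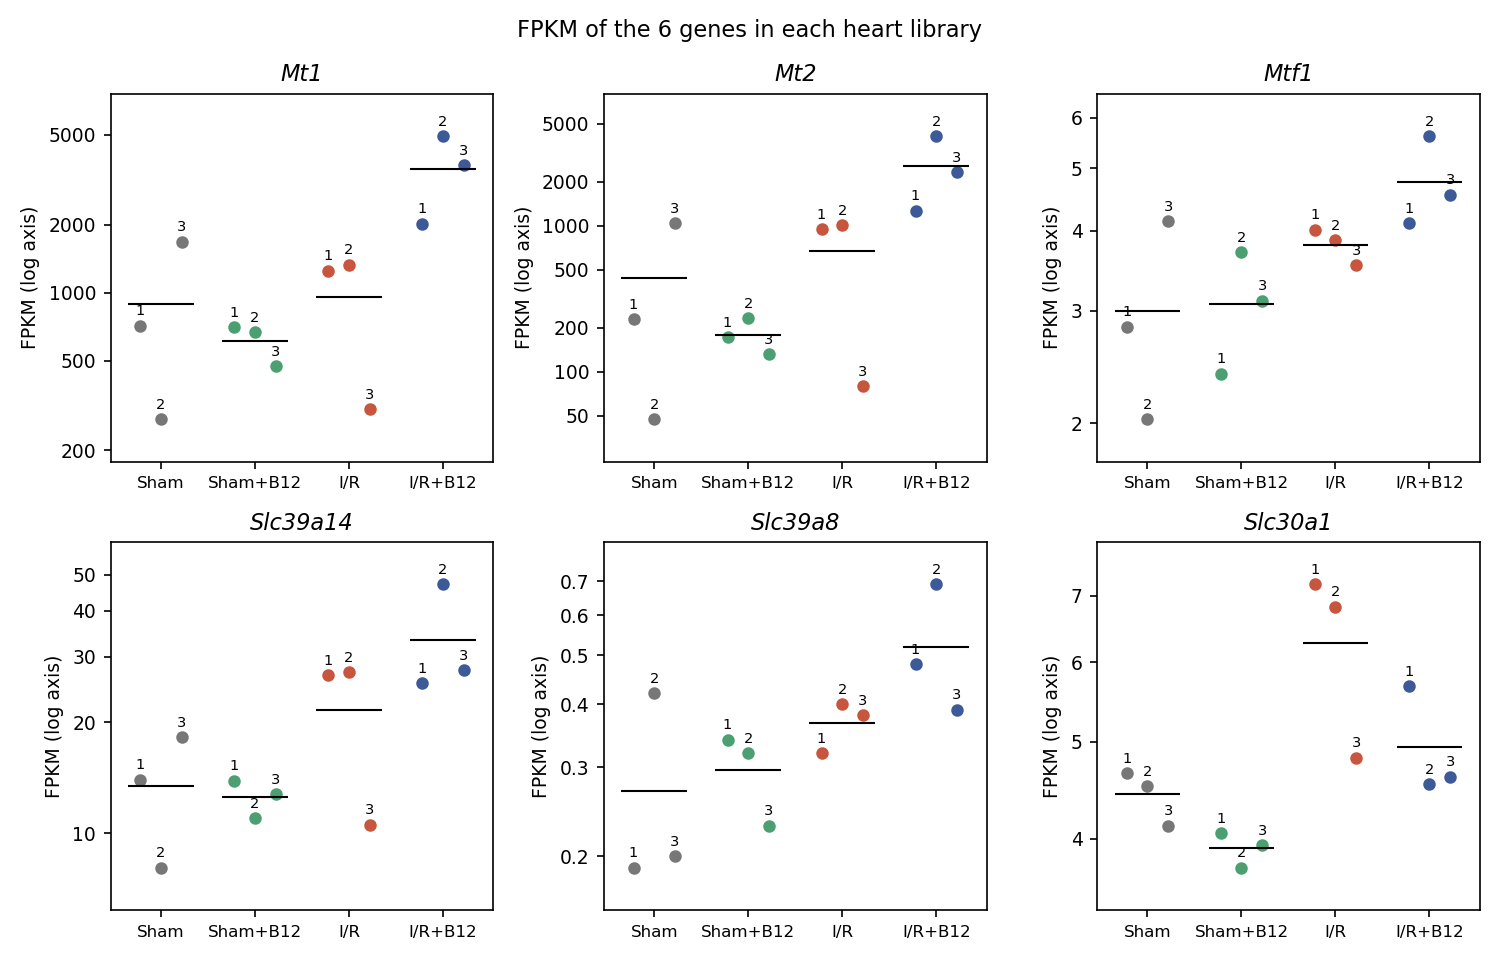
FPKM of the 6 genes (vertical log axes, scaled per gene) in the 12 libraries by group (horizontal axis), with the library number above each point and a line at the group mean. The 3 I/R+B12 libraries are the highest for Mt1 and Mt2, the library labelled I/R 3 lies well below I/R 1 and I/R 2 for Mt1, Mt2 and Slc39a14, the 3 Sham libraries are spread widely for the same genes, and Slc30a1 is highest in I/R 1 and I/R 2.

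Injury on normal water (I/R against Sham) gave no called gene anywhere in the table (limma on log2(FPKM + 1), adjusted p under 0.05, 0% of 13001 genes, with 1516 genes at an unadjusted p under 0.05), and so none of the 5 tested members. The log2 difference was 0.21 ± 0.66 (SE) for Mt1, 0.91 ± 1.10 for Mt2, 0.30 ± 0.20 for Mtf1, 0.60 ± 0.37 for Slc39a14 and 0.41 ± 0.15 for Slc30a1. Slc30a1 was the only one of the 6 genes higher in every I/R library than in every Sham library, a separation that 18.8% of tested genes showed, and its adjusted p was 0.3998. The 95% intervals of Mt1 (-1.25 to 1.66) and Mt2 (-1.50 to 3.32) left room for large differences either way. With Sham 3 and I/R 3 both left out, the differences were 1.54 for Mt1 (adjusted p = 0.165), 3.21 for Mt2 (adjusted p = 0.08252) and 1.27 for Slc39a14 (adjusted p = 0.109). Leaving out single libraries turned the sign of Mt1, which was -0.46 without Sham 2, -0.12 without I/R 1 and -0.16 without I/R 2, and of Mt2, which was -0.21 without Sham 2.

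Injury under B12 (I/R+B12 against Sham+B12) is the comparison in which Mt1 was already known to differ, so its values are a description. The group means stood 5.78-fold apart for Mt1, 14.4-fold for Mt2 and 2.66-fold for Slc39a14. The log2 difference from limma was 2.46 ± 0.66 (SE) for Mt1, 3.71 ± 1.10 for Mt2, 1.30 ± 0.37 for Slc39a14, 0.51 ± 0.20 for Mtf1 and 0.27 ± 0.15 for Slc30a1. Of the 5 tested members, 2 (Mt1 and Slc39a14) were past the threshold, where 10.4% of all tested genes were, 882 of them higher and 470 lower. Each of the 6 genes was higher in every I/R+B12 library than in every Sham+B12 library, as were 19.1% of tested genes. For both genes the call rested on the set of libraries: Mt1 kept it when Sham 2, the library labelled Sham 3, the library labelled I/R 3 or I/R+B12 1 was left out and lost it without any 1 of the other 8 (log2 difference 2.17 to 2.82), and Slc39a14 kept it without the library labelled Sham 3, the library labelled I/R 3 or I/R+B12 1 and lost it without any 1 of the other 9 (1.03 to 1.46). In those fits that leave out a library of another group, the difference itself is the same and only the shared spread changes.

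B12 in injured hearts (I/R+B12 against I/R) shares its I/R+B12 libraries with the comparison above. Mt1 was already known to be high in those libraries, so the values here, with the shares beside them, are likewise a description. Mt1, Mt2 and Mtf1 were higher in every I/R+B12 library than in every I/R library, which 4.41% of tested genes were, with group means 3.69-fold apart for Mt1 and 3.80-fold for Mt2. No gene in the table passed the threshold (limma, 0% of 13001 genes, with 3711 at an unadjusted p under 0.05). The log2 difference was 2.06 ± 0.66 (SE) for Mt1 (95% interval 0.60 to 3.52, adjusted p = 0.0987) and 2.44 ± 1.10 for Mt2 (interval 0.03 to 4.85, adjusted p = 0.1715). Slc39a14 differed by 0.67 ± 0.37 (adjusted p = 0.251) and Mtf1 by 0.26 ± 0.20 (adjusted p = 0.4175). Slc30a1 lay on the other side of 0, at -0.28 ± 0.15 (adjusted p = 0.242). All tested genes had a median of -0.21 in this comparison, so the Slc30a1 difference was close to the middle of the table and the metallothionein differences were far from it.

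The library labelled I/R 3 carried a large share of these I/R+B12 against I/R differences. Without it and the library labelled Sham 3, the difference fell to 1.36 for Mt1 (adjusted p = 0.1609, against 0.03091 to 0.2896 over its 24 alternatives), 1.24 for Mt2 (adjusted p = 0.2476) and 0.24 for Slc39a14 (adjusted p = 0.5943). Mt1 passed the threshold under 1 of the alternatives, without I/R+B12 1, where it stood at 2.42.

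B12 in sham-operated hearts (Sham+B12 against Sham) left the 5 tested members with differences smaller than their errors: -0.19 ± 0.66 for Mt1, -0.37 ± 1.10 for Mt2, 0.04 ± 0.20 for Mtf1, -0.03 ± 0.37 for Slc39a14 and -0.14 ± 0.15 for Slc30a1 (log2, SE). Each had an adjusted p of 0.9994 with limma, and 0% of 13001 genes were called, with 220 at an unadjusted p under 0.05. The intervals were wide for the metallothioneins, from -1.65 to 1.26 for Mt1 and from -2.78 to 2.04 for Mt2, so a difference of several-fold was not detectable here. Slc30a1 was lower in every Sham+B12 library than in every Sham library, as were 8.98% of tested genes, and none of the 6 genes was higher without overlap, against 1.54% of tested genes. Leaving out the library labelled Sham 3 turned Mt1 to 0.45, Mt2 to 0.73 and Slc39a14 to 0.21. Slc39a14 also turned positive without Sham 1 (0.03) or Sham+B12 2 (0.06), and Mtf1 turned negative without Sham 2 (-0.14) or Sham+B12 2 (-0.07).

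The interaction asks whether the I/R difference depends on the water given (its value with B12 less its value without), and it contains the comparison already known for Mt1. It was 2.25 for Mt1 (95% interval 0.19 to 4.31), 2.81 for Mt2 (-0.60 to 6.21), 0.70 for Slc39a14 (-0.46 to 1.85), 0.21 for Mtf1 (-0.42 to 0.84) and -0.14 for Slc30a1 (-0.61 to 0.34), on the log2 scale. All tested genes had a median of -0.14 here, so Slc30a1 was close to the middle of the table. No gene in the table was called (limma, 0% of 13001, with 1595 at an unadjusted p under 0.05), so an I/R difference that changes with B12 was not shown for any of the 5 genes.

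The mean of the 2 I/R differences, which sets 6 I/R libraries against 6 sham libraries, likewise contains the known comparison. It was 1.33 ± 0.47 (SE) for Mt1, 2.31 ± 0.78 for Mt2, 0.95 ± 0.26 for Slc39a14, 0.40 ± 0.14 for Mtf1 and 0.34 ± 0.11 for Slc30a1, above the median of 0.05 over all tested genes. Slc39a14 was past the threshold, 1 of 5, where 10.1% of tested genes were. It kept that call without the library labelled Sham 3, the library labelled I/R 3, I/R+B12 1 or I/R+B12 3 and lost it without any 1 of the other 8 (0.80 to 1.16). With Sham 3 and I/R 3 left out together, all 5 were past it, with differences of 2.00 for Mt1, 3.46 for Mt2, 1.28 for Slc39a14, 0.52 for Mtf1 and 0.39 for Slc30a1. Those 2 libraries were picked from the same expression values, so these 5 calls are a description.

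**Figure D2:**
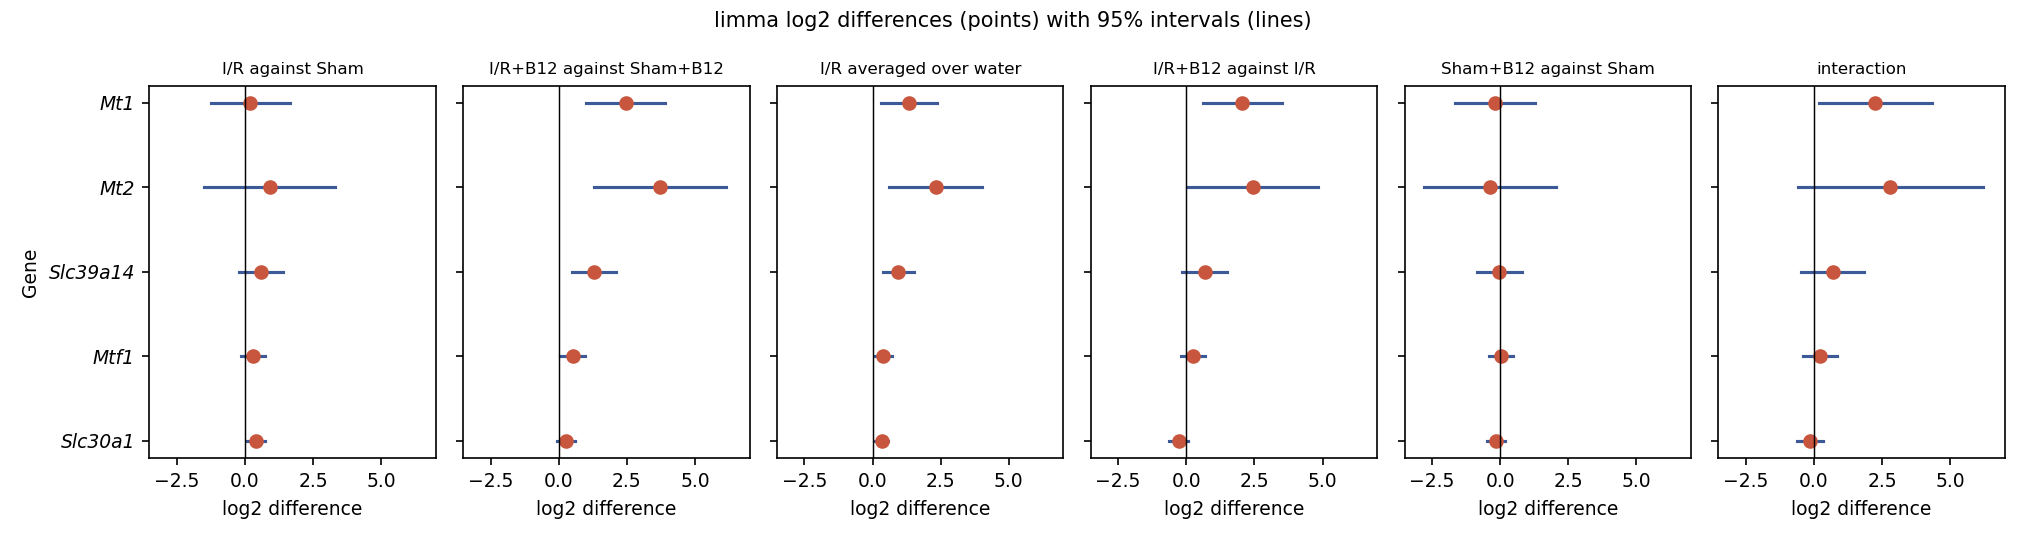
Log2 differences from limma (points, horizontal axis) with 95% intervals (lines) for the 5 tested genes in 6 comparisons, which share libraries. The intervals of Mt1 and Mt2 are several times wider than those of Mtf1 and Slc30a1. Of the 5 genes only Slc30a1 is left of 0 both in the interaction and for I/R+B12 against I/R. The medians over all tested genes were also below 0 there (-0.14 and -0.21).

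Mt2 was the less abundant metallothionein in every library, by a margin that varied between them. As a percentage of Mt1 on the FPKM scale it was 32.3, 17.2 and 62.1 in Sham 1 to 3 and 24.7, 34.97 and 28.1 in Sham+B12. In I/R 1 to 3 it was 75.9, 75.8 and 26.2, and in I/R+B12 it was 62.9, 83.6 and 63.7. Apart from the libraries labelled Sham 3 and I/R 3, every I/R library was above 60% and every sham library below 40%. The log2 ratio of Mt2 to Mt1 was -0.72 ± 0.61 in the 6 I/R libraries and -1.70 ± 0.61 in the 6 sham libraries (SD), a difference of 0.98 (exact two-sided permutation test, p = 0.03247, smallest possible 0.00216). The ratio was not among the values by which the genes were chosen. Its libraries include those in which Mt1 was already known to differ, and they were permuted across both kinds of water. This test is therefore given as a description. Within normal water the difference was 0.70 (exact p = 0.5) and within B12 it was 1.26 (exact p = 0.1), where 0.1 is the smallest p that 3 against 3 libraries allow. For the 6 against 6 libraries, the p stayed under 0.05 without Sham 1, Sham+B12 2 or the libraries labelled Sham 3 or I/R 3. It was above 0.05 without any 1 of the other 8 libraries, where the difference was 0.82 to 0.97 (exact p of 0.05195 to 0.06494). With Sham 3 and I/R 3 both left out the difference was 1.42 (exact p = 0.007937, the smallest that 5 against 5 libraries allow). Those 2 libraries were singled out from the same expression values and were the only ones on the other side of the ratio. That p therefore follows from leaving them out and is given as a description. FPKM appeared to be scaled to an effective transcript length, which for the short Mt1-201 (549 nt) was an estimated 279 to 304 nt across libraries, a spread of 1.09-fold. The part of this scaling in the ratio of Mt2 to Mt1 was not tested.

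The levels of the genes varied together to different degrees. Over the 12 libraries, on log2(FPKM + 1), Mt1 and Mt2 had a Pearson r of 0.98 (Spearman rho 0.98), which was 0.98 without the 2 libraries farthest from the median of Mt1 and 0.99 after subtracting group means. Slc39a14 had r = 0.93 with Mt1 and 0.95 with Mt2, and 0.92 with each after subtracting group means, so it varied with them within groups as well. Mtf1 had r = 0.83 with Mt1 and 0.87 with Mt2. Slc30a1 was weakly related to Mt1 (r = 0.23), and for Slc39a8 the r of 0.45 with Mt1 fell to -0.02 without the 2 farthest libraries. These values describe 12 libraries that share their groups, their depth scale and the 2 libraries that stand apart.

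**Figure D3:**
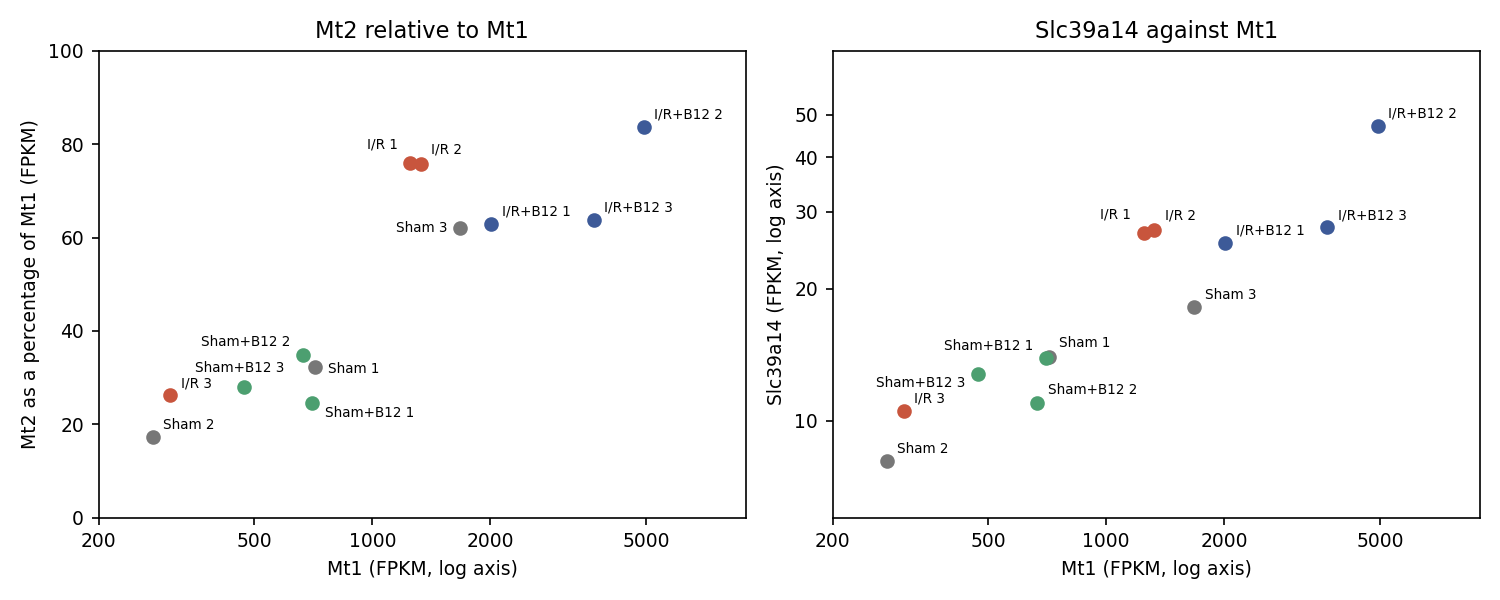
Left, Mt2 as a percentage of Mt1 (linear axis from 0) against Mt1 FPKM (log axis); right, Slc39a14 FPKM against Mt1 FPKM (both log axes), 1 point per library coloured by group. The library labelled Sham 3 (62.1%) lies with I/R 1, I/R 2 and the I/R+B12 libraries and the library labelled I/R 3 (26.2%) lies with the sham libraries.

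Among 11882 genes ranked by likeness over the 12 libraries (Pearson r of log2(FPKM + 1), unnamed gene models left out), Mt1 and Mt2 were each first for the other, and Slc39a14 was 5 for Mt2 and 35 for Mt1. Outside the 6 genes, those most like Mt1 were Slc10a6 (r = 0.97), a sulphated steroid transporter, Eif2ak4 (0.97), the kinase GCN2 that senses amino acid shortage, Fas (0.96), a death receptor, Ninj1 (0.96), which ruptures the plasma membrane of dying cells, and Hipk1 (0.96), a nuclear kinase. Those most like Mt2 were Cyb561 (0.97), a transmembrane electron carrier, Stat3 (0.97), the transcription factor activated by the IL-6 family, Rtn4rl2 (0.96), a Nogo receptor homologue, Slc3a2 (0.95), the heavy chain of amino acid transporters, and Cltb (0.95), a clathrin light chain. Those most like Slc39a14 were Sbno2 (0.97), a transcriptional coregulator, Cyb561 (0.96), Il4ra (0.96), the interleukin-4 receptor chain, Fjx1 (0.96) and Rela (0.96), the p65 subunit of NF-kappaB.

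The other zinc transporters held calls among both exporters and importers. Calls were found in 2 comparisons that share libraries, the mean of the 2 I/R differences and I/R+B12 against Sham+B12 (below, under B12), and none of the listed genes was called lower. Over all tested genes 10.4% were called under B12 and 10.1% in the mean, and without Sham+B12 1 or Sham+B12 3 no gene was called in either, so each call named in the lists is lost there. Leaving out Sham 1 or I/R 1 also left no call in the mean, and leaving out I/R 2 left 2, while under B12 32 genes were called without Sham+B12 2 and 49 without I/R+B12 2. Of 9 other ZnT exporters 5 were tested, and Slc30a4, which loads zinc into vesicles, was higher in both (log2 difference 1.13, adjusted p = 0.0188, and 0.81, adjusted p = 0.01756). Slc30a7, which supplies zinc to the Golgi, was called in the mean only (0.59, adjusted p = 0.03009, against 0.06436 under B12). The median of the tested exporters was 0.12 under B12 and 0.22 in the mean, beside -0.02 and 0.05 for all tested genes.

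Of 12 other ZIP importers 8 were tested. Slc39a10, a plasma membrane importer whose gene MTF-1 can repress, was called higher under B12 (0.65, adjusted p = 0.03314) and in the mean (0.53, adjusted p = 0.02581), and its FPKM was 1.74 to 2.88 in the sham-operated libraries and 2.75 to 4.05 in the libraries of both injured groups. Slc39a6, its close relative, was called in the mean (0.59, adjusted p = 0.0284). The importers' median was 0.34 under B12 and 0.32 in the mean. Of the other metallothioneins, Mt3, the form best known from brain, lay between 0.61 and 3.10 FPKM with a mean difference of 0.19 (adjusted p = 0.5404), and Mt4, the form of stratified epithelium, was listed at 0 in every library except I/R+B12 1.

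A list of 7 further MTF-1 targets, which includes Slc39a10, held 1 other call under B12, the growth factor gene Pgf (2.53, adjusted p = 0.03527), and no other in the mean. Its I/R+B12 libraries stood at 19.4, 127 and 16.2 FPKM, and the Sham+B12 libraries at 4.86, 5.42 and 5.15. The 7 targets had a median of 0.16 under B12 and 0.19 in the mean. Copper-handling genes, listed because metallothioneins also bind copper, had 0 calls among 8 tested of 9 with limma. The 2 with the smallest p in the mean were Atp7a, a copper exporter (0.32, adjusted p = 0.1529, unadjusted 0.0462), and Atox1, its copper chaperone (0.23, adjusted p = 0.184), and the list's medians were 0.00 under B12 and 0.05 in the mean.

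IL-6 family signalling was the list with the most calls. Under B12, 7 of 13 tested genes (14 listed) were called higher, where 10.4% of all tested genes were called: Il6 itself (adjusted p = 0.0283, with no fold because 1 group is at 0), its receptor Il6ra (0.99), the related cytokine Osm (1.81) and its receptor Osmr (1.60), the kinase Jak2 (0.78), Stat3 (1.23, adjusted p = 0.03935) and the feedback inhibitor Socs3 (4.30, adjusted p = 0.02531). In the mean, 6 were called, the same genes without Stat3 (adjusted p = 0.05408). Il6 was listed at 0 in all 3 Sham+B12 libraries and stood at 8.68, 74.7 and 7.84 FPKM in I/R+B12. Osm reached an FPKM of 1 only in injured hearts, and Il6 only there and in the library labelled Sham 3 (1.29). Both thus entered the test through the groups in which they are high, and their calls add no support to the count. The list's median was 1.29 under B12 and 0.77 in the mean.

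Stat3 kept the library pattern of the metallothioneins: 35.4, 25.6 and 60.5 FPKM in Sham 1 to 3, 31.3, 30.6 and 33.4 in Sham+B12, 59.5, 62.4 and 27.7 in the I/R group, and 77.8, 83.1 and 68.1 in I/R+B12. The library labelled Sham 3 was high and the library labelled I/R 3 low for this gene as well.

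The list of the glucocorticoid receptor gene Nr3c1 and its target genes had 3 calls among 13 tested under B12. They were Sgk1, a salt-handling kinase (1.47, adjusted p = 0.01898), the cell cycle inhibitor gene Cdkn1a (3.65, adjusted p = 0.03616) and Errfi1, an inhibitor of EGF receptors (1.66, adjusted p = 0.0265). Of the 13, 10 were above 0 under B12 and 3 were below it: Nr3c1 (-0.06), Tsc22d3 (-0.32) and Klf15 (-0.51). Cdkn1a is also a target of p53. Sgk1 and Errfi1 were also called in the mean (0.82, adjusted p = 0.02718, and 1.10, adjusted p = 0.02915). Sgk1 stood at 91.7, 149 and 159 FPKM in I/R+B12 and between 29.2 and 56.4 in all other libraries. The list's median was 0.58 under B12, 0.14 in the mean and 1.02 in I/R+B12 against I/R, where no gene was called.

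Among the genes of NRF2, a transcription factor of the response to oxidants, 10 of 11 were tested. Under B12, 3 were called: Nfe2l2, which encodes NRF2 (0.77, adjusted p = 0.03214), Hmox1, haem oxygenase (2.67, adjusted p = 0.03976), and Txnrd1, thioredoxin reductase (1.45, adjusted p = 0.02355). The mean added Txn1, thioredoxin (0.60, adjusted p = 0.0359), to these 3. The list's medians were 0.74 and 0.58. All these lists were set with earlier results of the same libraries known, and their counts are descriptions.

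Markers of several cell types also differed between the libraries. The mean log2(FPKM + 1) of 7 neutrophil markers was 0.12 to 2.31 in the sham-operated libraries, 5.48, 5.13 and 1.09 in I/R 1 to 3, and 4.56, 5.85 and 2.54 in I/R+B12. Within Sham the library labelled Sham 3 was the highest, at 2.31, and Ly6g was listed at 0 in Sham 1, Sham 2, Sham+B12 1, Sham+B12 3 and the library labelled I/R 3. The 8 monocyte and macrophage markers averaged 2.26 to 3.33 in the sham-operated libraries, 3.06 to 5.27 in the I/R group and 2.31 to 4.35 with I/R+B12. I/R+B12 3, second highest for Mt1, had a monocyte and macrophage score of 2.31, inside the sham range. Cardiomyocyte markers averaged 11.59 to 11.81 in the sham-operated libraries, 11.17 to 11.65 in the I/R group and 11.14 to 11.71 with I/R+B12.

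The 6 fibroblast markers averaged 4.40 to 4.79 in I/R+B12, below every I/R library (5.42 to 5.64), and 4.70 to 5.51 in the sham-operated libraries. The 6 smooth muscle and pericyte markers averaged 4.77 to 5.15 in I/R+B12, also below every I/R library (5.19 to 5.45), and 4.85 to 5.50 in the sham-operated libraries. The 5 hepatocyte markers averaged 1.64 in Sham+B12 1 and 2.11 in the library labelled I/R 3, against 0.04 to 0.42 in all other libraries. The origin of these liver transcripts was not tested.

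The metallothioneins did not follow the neutrophil list in every library. I/R 1 and I/R 2 had neutrophil scores of 5.48 and 5.13 with an Mt1 FPKM of 1249 and 1328, while I/R+B12 3 had a score of 2.54 with 3674. Across the 12 libraries the neutrophil score had r = 0.71 with Mt1 and the monocyte and macrophage score 0.29. The r was -0.70 for smooth muscle and pericyte, -0.59 for fibroblast, -0.58 for lymphocyte, -0.49 for cardiomyocyte, -0.48 for hepatocyte, -0.32 for endothelial, -0.18 for erythroid and -0.12 for atrial cardiomyocyte markers, over points that share groups and depth scale. The part of these cell markers in the differences of the 6 genes was not tested, and in whole-heart RNA a change in the number of cells of a type and a change in RNA per cell cannot be told apart.

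**Figure D4:**
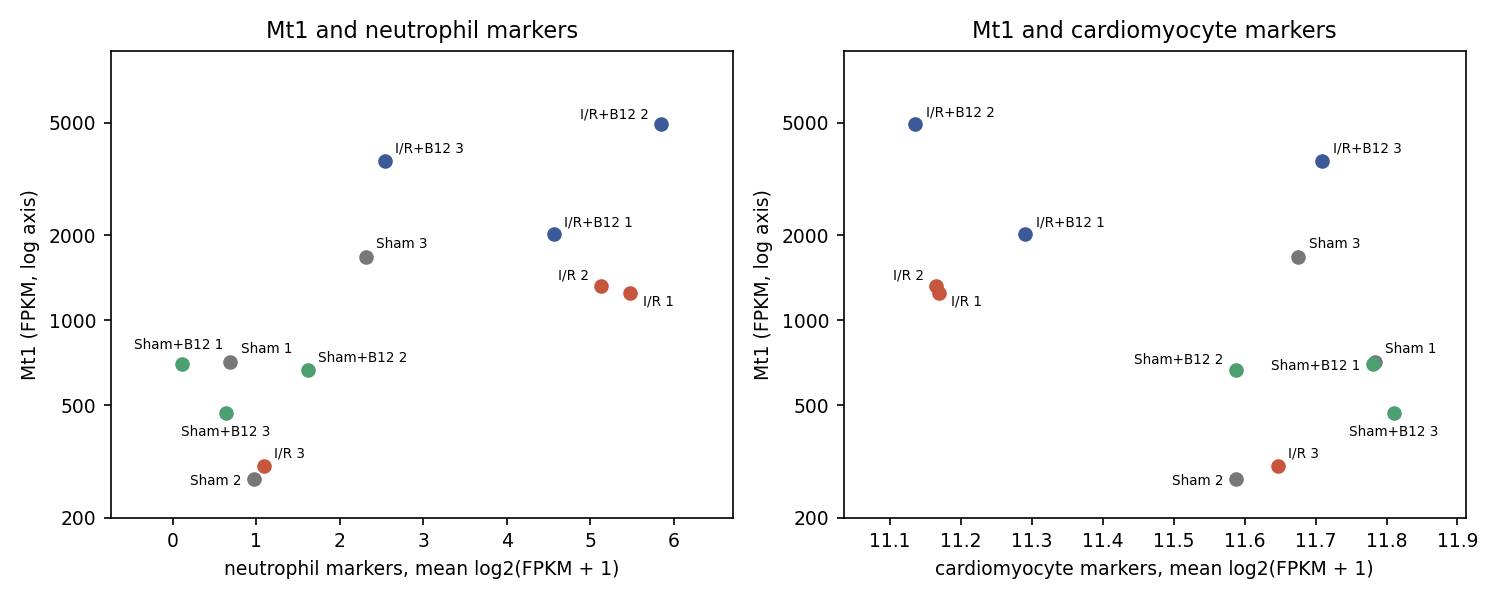
Mt1 FPKM (vertical log axis) against the mean log2(FPKM + 1) of 7 neutrophil markers (left) and 8 cardiomyocyte markers (right), 1 point per library coloured by group. I/R+B12 3 combines a high Mt1 level (3674) with a neutrophil score of 2.54, below those of I/R 1 and I/R 2.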

How the data were processed

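The authors deposited gene FPKM for 12 heart libraries (poly(A)-selected RNA, paired reads of 150 bases, per the labels' protocols). HISAT2, StringTie and mm10 are named without versions, per the submitters' processing notes, and the annotation release is not given in the sources used here. The deposited table also holds 4 group mean columns, which were not used. No counts were given. Depth was estimated from steps between low FPKM: 81.4% to 87.4% of low values lay within 0.15 of a whole number of fragments once lengths were shortened by 245 to 270 nt, and an FPKM of 1 in a 1500 nt transcript is then 29.8 to 35.1 fragments.

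A gene was tested where 3 or more libraries had an FPKM of at least 1 (13001 genes). A model of all 12 libraries with 6 contrasts was fitted on log2(FPKM + 1), using a variance trend, in limma 3.58.1 (R 4.3.3). Fold changes on that scale understate those of low genes. P-values were two-sided and Benjamini-Hochberg adjusted over all tested genes within each contrast, and a call means an adjusted p under 0.05. The script was tested on simulated data whose spread between libraries was capped below that of Mt1 and Mt2, so that test does not cover genes as variable as these. Groups came from the labels' treatment. The main fit did not pair libraries by replicate number. Deviations of 18 same-number pairs from their group means had a mean r of 0.01 (-0.41 to 0.39), a range too wide to exclude a pairing. The 6 genes and all lists were chosen with earlier results of these data known. From each list the text names every called gene, up to 6 per list and contrast by smallest p, or else the 2 with the smallest p in the mean of the I/R differences, and the 5 genes most like Mt1, Mt2 and Slc39a14. The genes of the glucocorticoid list that lay below 0 under B12 are named as well. Alternatives covered pseudocount, filter, scaling, variance model, library weights, the replicate block, the groups fitted and each library left out.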

Additional observations from a re-analysis of the deposited data

How the results depend on the processing

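With 3 libraries per group and Mt2 levels from 47.4 to 1043 FPKM within Sham, the calls depended on the settings. Mt1 in I/R+B12 against Sham+B12 was past the threshold under 13 of 24 alternatives, Slc39a14 under 10 of 24 and Mt2 under 9 of 24, and the direction held under all of them. The cause of the changes listed here was not tested. The fit of the library weights stopped before it converged, so the counts with weights are uncertain. FPKM carry no counts, so counting error of Slc39a8 could not be modelled.

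For I/R+B12 against Sham+B12 (1352 genes and 2 of the 6 genes called), 262 genes were called with no filter on low values, 241 with only the compared groups, 3082 with library weights and 0 to 3833 when 1 library was left out. Without the filter 0 of the 6 genes were called, 1 with quantile normalization, 1 with no variance trend, 1 with a robust trend and 0 to 3 when 1 library was left out. For the mean of the I/R differences (1309 and 1), the genes were 274 with no filter, 4736 with weights, 2320 with Sham 3 and I/R 3 both left out and 0 to 2701 with 1 library left out. Of the 6 genes 0 were called with no filter, 0 with median-ratio scaling, 0 with quantile normalization, 5 with weights, 5 without those 2 libraries and 0 to 4 with 1 left out. The fit with the replicate block called 0 of the 6 genes in both comparisons and changed no other call of theirs.

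For I/R+B12 against I/R (0 and 0), the genes were 2 with median-ratio scaling, 1 with quantile normalization, 2 with only the compared groups, 4325 with weights, 4 without the 2 libraries and 0 to 4409 with 1 left out. The called members were 1 with weights (Slc30a1, lower) and 0 to 1 with 1 left out (Mt1, higher, without I/R+B12 1). For I/R against Sham (0 and 0), the genes were 2 with only the compared groups, 4411 with weights, 55 without the 2 libraries and 0 to 1 with 1 left out, and 4 members were called with weights. For the interaction, 1 gene was called with no filter, 1838 with weights, 2 without the 2 libraries and 0 to 1840 with 1 left out. For Sham+B12 against Sham, 3 genes were called with no filter and 0 to 1 with 1 left out.

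The following signs turned. Slc39a14 in Sham+B12 against Sham (-0.03) was 0.046 with median-ratio scaling, 0.058 after quantile normalization, 0.015 with weights and 0.21 without the 2 libraries, where Mt1 was 0.45 and Mt2 0.73. Slc30a1 in the interaction (-0.14) was 0.0017 with median-ratio scaling and 0.025 after quantile normalization, while Mtf1 there (0.21) was -0.028 without the 2 libraries. With 1 library left out, I/R against Sham ran from -0.46 to 0.90 for Mt1 and -0.21 to 2.11 for Mt2. Sham+B12 against Sham ran from -0.86 to 0.45 for Mt1, -1.48 to 0.73 for Mt2, -0.14 to 0.24 for Mtf1 and -0.33 to 0.21 for Slc39a14. The log2 ratio of Mt2 to Mt1 (0.98) was 0.70 within normal water, 1.26 within B12 and 0.82 to 1.22 with 1 left out.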
